A study of Mus musculus with 48 samples.

Results

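The 7 genes described here, *Nlrp3*, *Aim2*, *Pycard*, *Casp1*, *Casp4*, *Gsdmd* and *Il18*, encode the core of the inflammasome and of pyroptosis, a lytic form of cell death. They were chosen by name from the 46983 genes counted, and each was found under 1 identifier. An inflammasome is a protein complex that assembles in the cytosol when a sensor meets a danger signal. The sensors NLRP3 and AIM2 recruit the adaptor ASC, the product of *Pycard*, which brings in caspase-1. Caspase-1 cleaves the precursors of interleukin-1β and interleukin-18 and cleaves gasdermin D (*Gsdmd*), whose released part opens pores in the plasma membrane. Mouse *Casp4* encodes caspase-11, which cleaves gasdermin D without an inflammasome sensor. In the brain these genes are known mainly from microglia and from myeloid cells that enter injured tissue.

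RNA was measured in 48 libraries from brain tissue of C57Black/6 male mice aged 3 months, the age and strain that the methods of the study give. The methods name the injured cortical region as the tissue, while the results of the study speak of almost the whole hemisphere on the injured side. The sources used here do not settle which was taken. In the MCAO groups the middle cerebral artery was coagulated and cut, a permanent occlusion that leaves small parietal cortical infarcts, and tissue was taken after 3 h (n = 5), 12 h (n = 5), 24 h (n = 4), 3 days (n = 5) or 7 days (n = 5). The sham groups (n = 4 at each of the same times) had the surgery without coagulation. The control group (n = 4) gave, by the methods, intact cortex. The dissected piece held both affected and spared tissue, so a level is an average over both, and more cells of a type cannot be told apart from more RNA per cell. The study counts mice as the replicates of a condition, while the labels name replicates by letter only, so p-values measure the spread between these libraries.

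Each library held between 1522668 and 2826735 counts on genes, and 16484 to 18153 genes had a count. Neuronal markers were high in every library (summed level of 8 markers 5518 to 10391 CPM, counts scaled to the size of the library). After MCAO 3 libraries stood apart in their markers of infiltrating cells. MCAO 7 days replicate C had 4132 CPM of monocyte and macrophage markers and 5491 CPM of fibroblast markers, where the other libraries of its group had 110 to 205 CPM and 170 to 506 CPM. MCAO 12 h replicate E had 1710 CPM of neutrophil markers, where the others had 12.6 to 177 CPM. MCAO 3 days replicate C had 620 CPM of these, where the others had 6.41 to 71.8 CPM. The piece of brain also varied, with 102 to 2871 CPM of 6 striatal markers over all libraries and 500 CPM of 5 choroid plexus markers in control replicate A against at most 54.7 CPM elsewhere. Calls that were lost without such a library are named below.

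The members lie on mouse chromosomes 1 (*Aim2*, 173350879 to 173466040, plus strand), 7 (*Pycard*, 127989708 to 127993867, minus strand), 9 (*Casp1*, 5298517 to 5307265, *Casp4*, 5308828 to 5336783, and *Il18*, 50554827 to 50581840, all plus strand), 11 (*Nlrp3*, 59541568 to 59566956, plus strand) and 15 (*Gsdmd*, 75862327 to 75867408, plus strand) of GRCm38. *Casp1* and *Casp4* are thus neighbours on the same strand, and their values are given separately. The annotated span of *Aim2* overlaps *Cadm3*, that of *Il18* overlaps *Bco2* and *Tex12* and that of *Pycard* overlaps *Gm45205*, all on the opposite strand. The strand setting of the counting is not given in the sources used here, so reads of these partners may not have been kept apart.

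RefSeq start sites on GRCm38.p6 were available for *Nlrp3*, *Aim2*, *Pycard*, *Casp1*, *Casp4* and *Il18*. For each gene only the site nearest its annotated start was used, which was 1 of 2 listed for *Nlrp3* and for *Casp4*. The 250 bases before this site were searched on both strands for 4 motifs. They were a PU.1-type box (GAGGAAGT), an IRF-type element (GAAANNGAA), an NF-kB-type element (GGGNNTTTC) and an AP-1-type element (TGANTCA). Of 32851 promoters searched alike, 2.44%, 7.13%, 3.72% and 6.75% held a match. The 3 promoters with a match are shown, 5′ to 3′ along the strand of the gene and ending 1 base before the start site, with matches in capitals. *Pycard* (chr7:127993868-127994117, minus strand) has a PU.1-type box, *Aim2* (chr1:173420354-173420603, plus strand) has an NF-kB-type element and then a PU.1-type box, and *Casp4* (chr9:5308599-5308848, plus strand) has 2 NF-kB-type elements. The *Aim2* site, the only 1 listed, lies well inside the annotated span of the gene given above, which starts at 173350879. No match to the 4 motifs was found before the sites used for *Nlrp3*, *Casp1* and *Il18*, and the second site listed for *Nlrp3* was not searched. A match describes the letters only.
Pycard: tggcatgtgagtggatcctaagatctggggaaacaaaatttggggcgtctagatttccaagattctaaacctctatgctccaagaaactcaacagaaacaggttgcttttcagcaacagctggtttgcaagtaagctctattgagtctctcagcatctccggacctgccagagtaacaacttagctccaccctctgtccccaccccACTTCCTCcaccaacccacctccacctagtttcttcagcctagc
Aim2: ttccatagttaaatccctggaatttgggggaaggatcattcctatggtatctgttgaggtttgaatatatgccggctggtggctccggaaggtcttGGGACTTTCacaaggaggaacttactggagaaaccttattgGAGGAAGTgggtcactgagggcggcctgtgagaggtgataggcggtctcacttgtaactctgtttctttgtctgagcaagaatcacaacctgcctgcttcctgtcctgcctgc
Casp4: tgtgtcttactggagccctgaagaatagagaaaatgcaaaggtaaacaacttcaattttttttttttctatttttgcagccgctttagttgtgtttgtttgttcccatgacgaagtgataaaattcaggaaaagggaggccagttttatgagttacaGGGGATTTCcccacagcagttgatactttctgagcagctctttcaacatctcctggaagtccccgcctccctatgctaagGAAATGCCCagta

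*Pycard* rose most clearly among the 7. In control it stood at 2.23, 2.25, 6.77 and 3.43 CPM, from 4 to 12 counts a library. The shams stayed low, from 0.791 CPM in a 3 h library to 5.5997 CPM in a 7-day library, and group means lay between 1.61 and 3.78 CPM. MCAO at 3 h (1.21, 2.36, 4.61, 3.02 and 1.82 CPM) overlapped the sham of that time. At 12 h the MCAO libraries held 7.42, 5.34, 6.78, 5.29 and 15.5 CPM against 1.68, 3.13, 2.59 and 3.51 CPM in sham. At 24 h they held 9.35, 7.48, 14.8 and 28.7 CPM against 4.75, 4.43, 1.83 and 1.57 CPM. From 12 h on, every MCAO library lay above every sham library of its time. At 3 days *Pycard* reached 8.01, 22.6, 70.4, 22.5 and 47.2 CPM after MCAO against 1.45, 4.62, 3.27 and 2.81 CPM in sham. At 7 days it stood at 16.2, 12.2, 64.3, 7.68 and 18.2 CPM against 3.43, 5.5997, 3.82 and 2.28 CPM.

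The test passed at 3 and 7 days. In edgeR's quasi-likelihood test, calls needed an adjusted p (Benjamini-Hochberg, over 19970 genes) below 0.01 and a log2 fold change beyond 0.58 in size. At 3 days *Pycard* was 34.1 ± 24.7 CPM (SD, n = 5) after MCAO and 3.04 ± 1.31 CPM (SD, n = 4) in sham, which gave a log2 fold change of 3.49 (SE 0.54, adjusted p = 1.35e-05). At 7 days it was 23.7 ± 23.0 CPM and 3.78 ± 1.38 CPM, a log2 fold change of 2.61 (SE 0.54, adjusted p = 0.00126). The call at 3 days held without MCAO replicate C (log2 fold change 3.04, adjusted p = 0.000149). The call at 7 days did not hold without MCAO replicate C (1.80, adjusted p = 0.0254) or without sham replicate D (2.41, adjusted p = 0.0130). The log2 fold changes at 3 h, 12 h and 24 h were 0.75, 1.51 and 2.23 (SE 0.72, 0.58 and 0.59) and were not called (adjusted p = 0.841, 0.198 and 0.106). Against control, with the same MCAO libraries, *Pycard* rose by 3.20 at 3 days (SE 0.55, adjusted p = 8.72e-05) and by 2.66 at 7 days (SE 0.55, adjusted p = 0.00222) on the log2 scale. The 7-day call against control did not hold without MCAO replicate C (1.86, adjusted p = 0.0491) or without control replicate A, B or D (2.48, 2.49 and 2.63, adjusted p = 0.0216, 0.0140 and 0.0157).

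**Figure D1:**
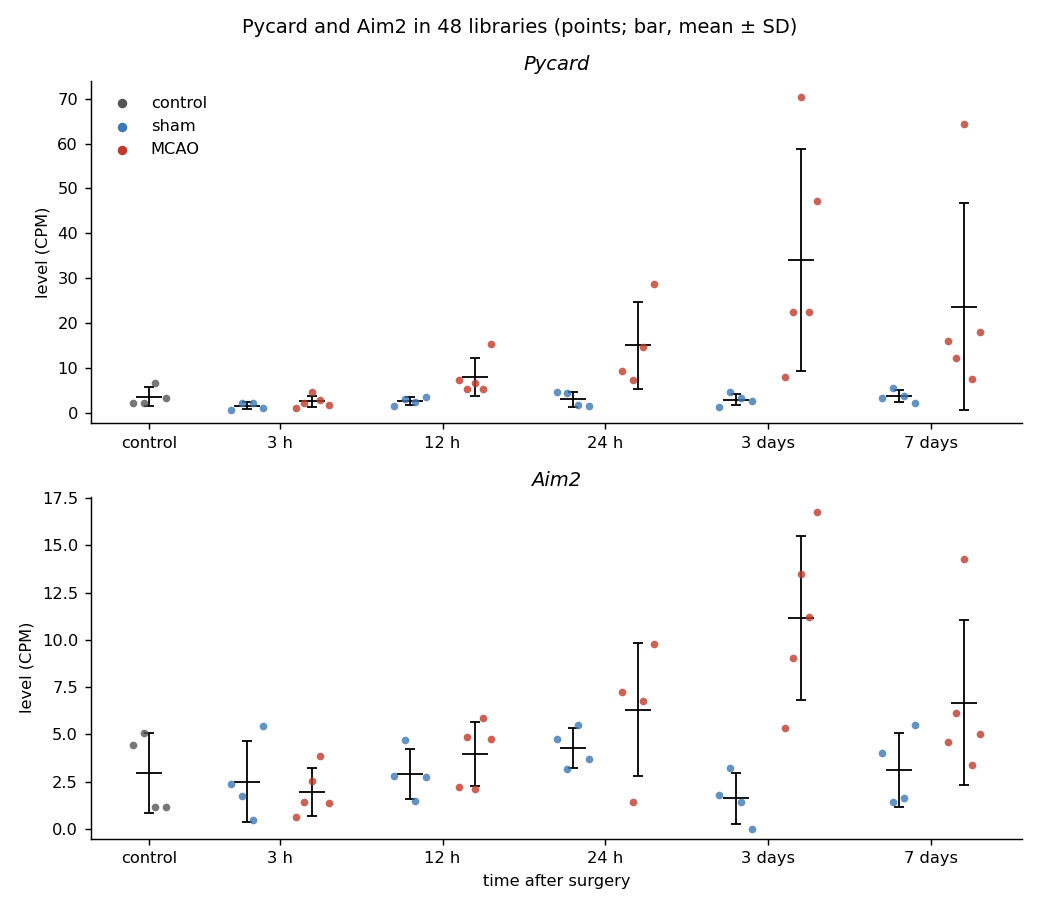
Level of *Pycard* (top) and *Aim2* (bottom) in CPM on a linear axis in each of the 48 libraries, by time after surgery, with control in grey, sham in blue and MCAO in red. Bars are the mean ± SD of 4 or 5 libraries. All 5 MCAO libraries at 3 days lie above all 4 shams of that time for both genes, and at 7 days 1 MCAO library, at 64.3 CPM of *Pycard* and 14.3 CPM of *Aim2*, lies far above the other 4.

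Ordered by group mean, *Pycard* was highest in MCAO at 3 days (34.1 CPM), then at 7 days (23.7), 24 h (15.1) and 12 h (8.06 CPM), and MCAO at 3 h (2.60 CPM) stood among the shams and control (1.61 to 3.78 CPM). No 2 neighbouring MCAO times were told apart by the test (adjusted p = 0.152 for 12 h over 3 h, 0.734, 0.175 and 0.653 for the later steps). The genes whose level was most like that of *Pycard* over the 48 libraries were *Fcer1g*, the common γ chain of Fc receptors (Pearson's r = 0.92 on log2(CPM + 1)), *Lyz2*, a lysozyme of myeloid cells (0.91), and *Cd63*, a tetraspanin of endosomes (0.90). These are values over libraries that share surgery and depth, among 11716 genes with a mean of at least 5 CPM, and carry no p.

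Markers of several cell types moved with *Pycard*, and those of others did not. At 3 days the astrocyte sums were 4207 to 5103 CPM after MCAO and 4636 to 5058 CPM in sham. Oligodendrocyte sums (1600 to 4473 and 1622 to 3768 CPM) and T cell sums (19.5 to 44.9 and 11.7 to 48.3 CPM) overlapped as well. At 7 days T cell sums were lower after MCAO (3.13 to 28.8 against 40.1 to 57.2 CPM), with 5 of the 7 markers at 0 in those shams. Of the 19970 genes tested against sham, 3.76% were called higher at 3 days and 2.07% at 7 days, beside 52 and 285 genes lower. The summed level of 10 microglial markers was 300 to 411 CPM in the 3-day shams and 690 to 2641 CPM in the MCAO libraries, and 8 of the 10 were called higher. Of 9 monocyte and macrophage markers 5 were called higher, and their sum rose from 13.4 to 26.7 CPM to 32.6 to 1087 CPM. Of the 8 neutrophil markers tested of 10 listed, *S100a8* and *S100a9* were called higher, the sum was 0 to 3.63 CPM in sham and 6.41 to 620 CPM after MCAO, and *Mpo* and *Elane* were at 0 in the MCAO libraries. Neuronal sums at 3 days were 5913 to 9201 CPM after MCAO and 9285 to 10309 CPM in sham, with 0 of 8 markers called higher and 1 lower, and endothelial sums were 223 to 598 and 217 to 255 CPM, with 2 of 6 called higher. Fibroblast sums at 3 days were 97.2 to 1342 CPM after MCAO and 82.5 to 152.8 CPM in sham, with 3 of 6 called higher. At 7 days 4 of 10 microglial, 3 of 9 monocyte and macrophage, 5 of 6 fibroblast and 0 of 8 neutrophil markers were called higher. Their sums at 7 days were 902 to 3594 CPM after MCAO and 445 to 591 CPM in sham (microglia), 110 to 4132 and 14.6 to 20.1 CPM (monocytes and macrophages), 170 to 5491 and 42.0 to 93.8 CPM (fibroblasts) and 5.77 to 19.3 and 0.912 to 4.58 CPM (neutrophils). In all 4 lists every MCAO library lay above every sham at that time. Neuronal sums at 7 days were 5518 to 8965 CPM after MCAO and 8875 to 9623 CPM in sham, with 0 of 8 called higher and 1 lower. Their part in the result was not tested. At 3 days replicate C held the most *Pycard* and the most microglial, macrophage and neutrophil markers (2641, 1087 and 620 CPM) and replicate A the least of all 4 (8.01, 690, 32.6 and 6.41 CPM). At 12 h, when *Pycard* lay above sham in 5 of 5 libraries without a call, the microglial sum was 282 to 658 CPM after MCAO and 312 to 542 CPM in sham. At 24 h it was 580 to 776 CPM and 368 to 477 CPM, and no microglial marker was called at either time. Neutrophil sums were 12.6 to 1710 CPM after MCAO and 2.59 to 3.12 CPM in sham at 12 h. At 24 h they were 31.0 to 61.1 CPM and 4.19 to 8.85 CPM. Monocyte and macrophage sums after MCAO were 22.3 to 210 CPM at 12 h, overlapping sham (at most 25.5 CPM). At 24 h these were 44.4 to 136 CPM after MCAO and 15.9 to 23.2 CPM in sham. The part of these cells at 12 h and 24 h was not tested.

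**Figure D2:**
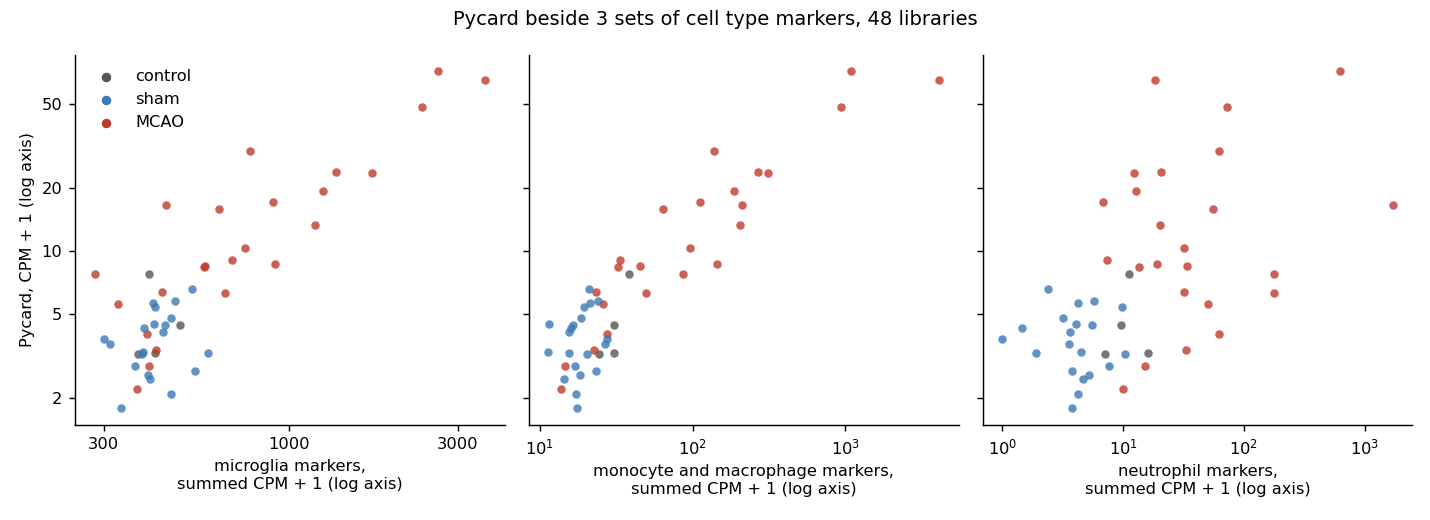
Level of *Pycard* (vertical axis, CPM + 1) against the summed level of microglial, monocyte and macrophage, and neutrophil markers (horizontal axes, CPM + 1), all on log axes, 1 point per library (control grey, sham blue, MCAO red). The 3 libraries above 40 CPM of *Pycard* are MCAO at 3 days (70.4 and 47.2 CPM) and 7 days (64.3 CPM) and have the highest microglial and macrophage sums. Their neutrophil sums are 620, 71.8 and 17.3 CPM in the same order. The library with the highest neutrophil sum (1710 CPM), MCAO 12 h replicate E, has 15.5 CPM of *Pycard*, the most of its group. Which cells held the RNA was not tested.

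*Aim2*, the sensor of double-stranded DNA in the cytosol, rose at 3 days. Its 5 MCAO libraries held 5.34, 9.04, 13.5, 11.2 and 16.7 CPM against 1.81, 3.23, 1.40 and 0 CPM in the 4 shams, and the groups did not overlap. The means were 11.2 ± 4.33 CPM and 1.61 ± 1.33 CPM, a log2 fold change of 2.74 (SE 0.58, n = 5 and 4, adjusted p = 0.00113 by edgeR). The call did not hold without the sham library at 0, replicate D (2.34, adjusted p = 0.0110). Control held 4.46, 5.06, 1.13 and 1.14 CPM, and against it the 3-day rise was 1.90 (SE 0.56, adjusted p = 0.0260). Each of the 5 MCAO libraries lay above all controls, and edgeR did not call this difference while DESeq2 did. At 24 h the MCAO libraries held 7.22, 1.40, 6.78 and 9.78 CPM and the shams 4.75, 3.16, 5.49 and 3.67 CPM, so that 1 MCAO library lay below all shams. At 7 days the MCAO libraries held 4.62, 6.11, 14.3, 3.36 and 5.01 CPM and the shams 4.01, 1.40, 1.64 and 5.47 CPM, which overlapped (log2 fold change 1.06, SE 0.56, adjusted p = 0.243, and 0.57 without MCAO replicate C). At 3 h and 12 h the log2 fold changes were -0.27 and 0.44 (SE 0.63 and 0.58). The effect at 3 days exceeded that at 24 h by 2.20 on the log2 scale (SE 0.82), which did not pass (adjusted p = 0.446). The genes most like *Aim2* were *Cx3cr1*, the fractalkine receptor of microglia (r = 0.77), *F11r*, a junctional adhesion molecule (0.77), and *Tmem176a*, a membrane protein (0.76).

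*Nlrp3*, the sensor of many danger signals, was at the edge of detection, with 0 counts in 22 of 48 libraries and 89 counts in all. Control held 1 count over 4 libraries. At 3 days the MCAO libraries held 0, 0.452, 8.99, 1.95 and 3.53 CPM, the highest from 18 counts in replicate C, against 0, 0.923, 0 and 0.469 CPM in sham. The mean was 2.98 ± 3.63 CPM after MCAO and 0.348 ± 0.443 CPM in sham (log2 fold change 2.95, SE 1.18, adjusted p = 0.122), and the groups overlapped. Without replicate C the log2 fold change was 1.98 (adjusted p = 0.413). At 7 days the 5 MCAO libraries held 0.577, 2.04, 1.19, 1.44 and 2.51 CPM and the 4 shams 0. With a floor of 3 counts over the sham group, *Nlrp3* was 4.08-fold higher after MCAO, and the adjusted p was 0.0669. The floor allows for counting error in the sham alone, not in the 14 counts after MCAO. At 12 h MCAO replicates C and E held 3.13 and 4.17 CPM, 1 other held 0.485 CPM and 2 held 0, against at most 0.559 CPM in sham (adjusted p = 0.382). At 3 h and 24 h the groups overlapped. The genes most like it were *Srgn*, a proteoglycan of secretory granules (r = 0.69), *Trim30a* (0.69) and *Tnfrsf1b*, a receptor of tumour necrosis factor (0.68).

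*Casp1*, the caspase that inflammasomes activate, passed the test at no time. It was present at 0 to 13 counts a library and its group means lay between 0.848 CPM (sham 24 h) and 4.43 CPM (MCAO 7 days). The largest difference from sham was at 7 days, 4.43 ± 2.30 CPM (SD, n = 5) against 0.869 ± 1.12 CPM (SD, n = 4), which gave a log2 fold change of 2.25 (SE 0.87, adjusted p = 0.0964). Those MCAO libraries held 2.88, 2.04, 7.73, 5.76 and 3.76 CPM and the shams 1.14, 2.33, 0 and 0 CPM. Without MCAO replicate C it was 1.95 (adjusted p = 0.217). Control held 3.35, 0, 2.26 and 4.57 CPM, overlapping both groups, and against it the log2 fold change at 7 days was 0.79 (SE 0.77, adjusted p = 0.702). At 3 days, where *Pycard* and *Aim2* were highest, *Casp1* was 3.14 ± 1.00 CPM after MCAO and 2.51 ± 1.33 CPM in sham (log2 fold change 0.30, SE 0.75). The genes most like it were *Tent5a* (r = 0.73), *Heatr5a* (0.62) and *Rnaset2a* (0.62).

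*Casp4* was nearly absent without MCAO, with 9 counts in the 24 control and sham libraries together. After MCAO it held 0.420 to 1.82 CPM at 3 h, 0.371, 0.485, 1.56, 1.18 and 5.36 CPM at 12 h, 2.12, 0.467, 2.54 and 1.22 CPM at 24 h and 1.07, 2.26, 9.99, 0.488 and 3.97 CPM at 3 days. Every MCAO library up to 3 days thus had a count, while the shams of these times held 0 to 2 counts each. At 7 days 2 of 5 MCAO libraries were at 0 and the highest held 3.84 CPM. At 12 h the sham was at 0 in all 4 libraries. With a floor of 3 counts over that group, *Casp4* was 4.76-fold higher after MCAO, leaving out counting error in the 16 MCAO counts. The adjusted p was 0.0735, and 0.239 without MCAO replicate E, which held 9 of these counts. At 3 days the 5 MCAO libraries lay above the 4 shams, at 37 counts against 1, a ratio of 32.7 with an exact 95% interval of 5.52 to 1326 for counting error only. The fitted log2 fold change was 4.39 (SE 1.18), and its adjusted p of 0.0125 missed the threshold of 0.01. It passed when MCAO replicate A (4.62, adjusted p = 0.00612) or D (4.64, adjusted p = 0.00823) was left out, and without MCAO replicate C, at 20 counts, the value was 3.55 (adjusted p = 0.0813). Against control the 3-day log2 fold change was 4.16 (SE 1.22, adjusted p = 0.0271). Among the genes most like *Casp4* were *S100a9*, a neutrophil marker (r = 0.73), and *Ranbp1* (0.72). The libraries with the most *Casp4* at 3 days and 12 h, replicates C and E, also had the highest neutrophil sums of their groups (620 and 1710 CPM). Their monocyte and macrophage sums were the highest of their groups as well (1087 and 210 CPM). The microglial sum was the highest of its group in replicate C at 3 days (2641 CPM) but not in replicate E at 12 h (450 CPM). The part of these cells in the result was not tested.

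*Gsdmd*, the pore former, had 0 to 18 counts a library. After MCAO it held 3.20, 1.81, 8.99, 5.37 and 3.97 CPM at 3 days and 6.92, 2.04, 7.73, 2.88 and 3.76 CPM at 7 days. The shams held 2.18, 1.85, 0.934 and 2.81 CPM and 0.572, 2.33, 1.09 and 0.912 CPM. At both times 4 of 5 MCAO libraries lay above all shams, and the log2 fold changes of 1.23 (SE 0.72, adjusted p = 0.322) and 1.84 (SE 0.78, adjusted p = 0.131) were not called. Without replicate C of each MCAO group they were 0.85 and 1.57 (adjusted p = 0.590 and 0.272). Control lay between 0 and 1.14 CPM, below all 10 of these MCAO libraries, and the log2 fold changes over it were 2.38 (SE 0.83, adjusted p = 0.0740) and 2.37 (SE 0.84, adjusted p = 0.114). At 3 h the mean was lower after MCAO (0.823 ± 0.719 CPM) than in sham (1.73 ± 1.83 CPM), with overlapping groups. The genes most like it were *Fli1*, a transcription factor of blood and vessel cells (r = 0.73), *Ctsh*, a cathepsin (0.69), and *Itgam*, the CD11b integrin chain (0.68).

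*Il18*, the cytokine that caspase-1 matures, was counted well, at 27 to 113 counts a library, and moved least. Its group means lay between 24.5 CPM (sham 3 days) and 39.2 CPM (MCAO 7 days). The log2 fold changes from sham were -0.39, -0.35 and -0.23 at 3 h, 12 h and 24 h and 0.32 and 0.41 at 3 and 7 days, with SE of 0.25 to 0.26, and none was called (adjusted p = 0.317 to 0.847). At 7 days the MCAO libraries held 31.7, 48.9, 30.9, 54.2 and 30.1 CPM and the shams 22.9, 31.7, 24.5 and 38.8 CPM, and 2 MCAO libraries lay above all shams. At 3 h the MCAO libraries held 22.3, 26.0, 22.2, 23.3 and 30.5 CPM and the shams 30.8, 28.8, 28.7 and 42.0 CPM, and 4 of 5 MCAO libraries lay below all shams. The genes most like it were *Rnft2* (r = 0.62), *Atat1*, a tubulin acetyltransferase (0.59), and *Uqcr11*, a subunit of respiratory complex III (0.58).

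**Figure D3:**
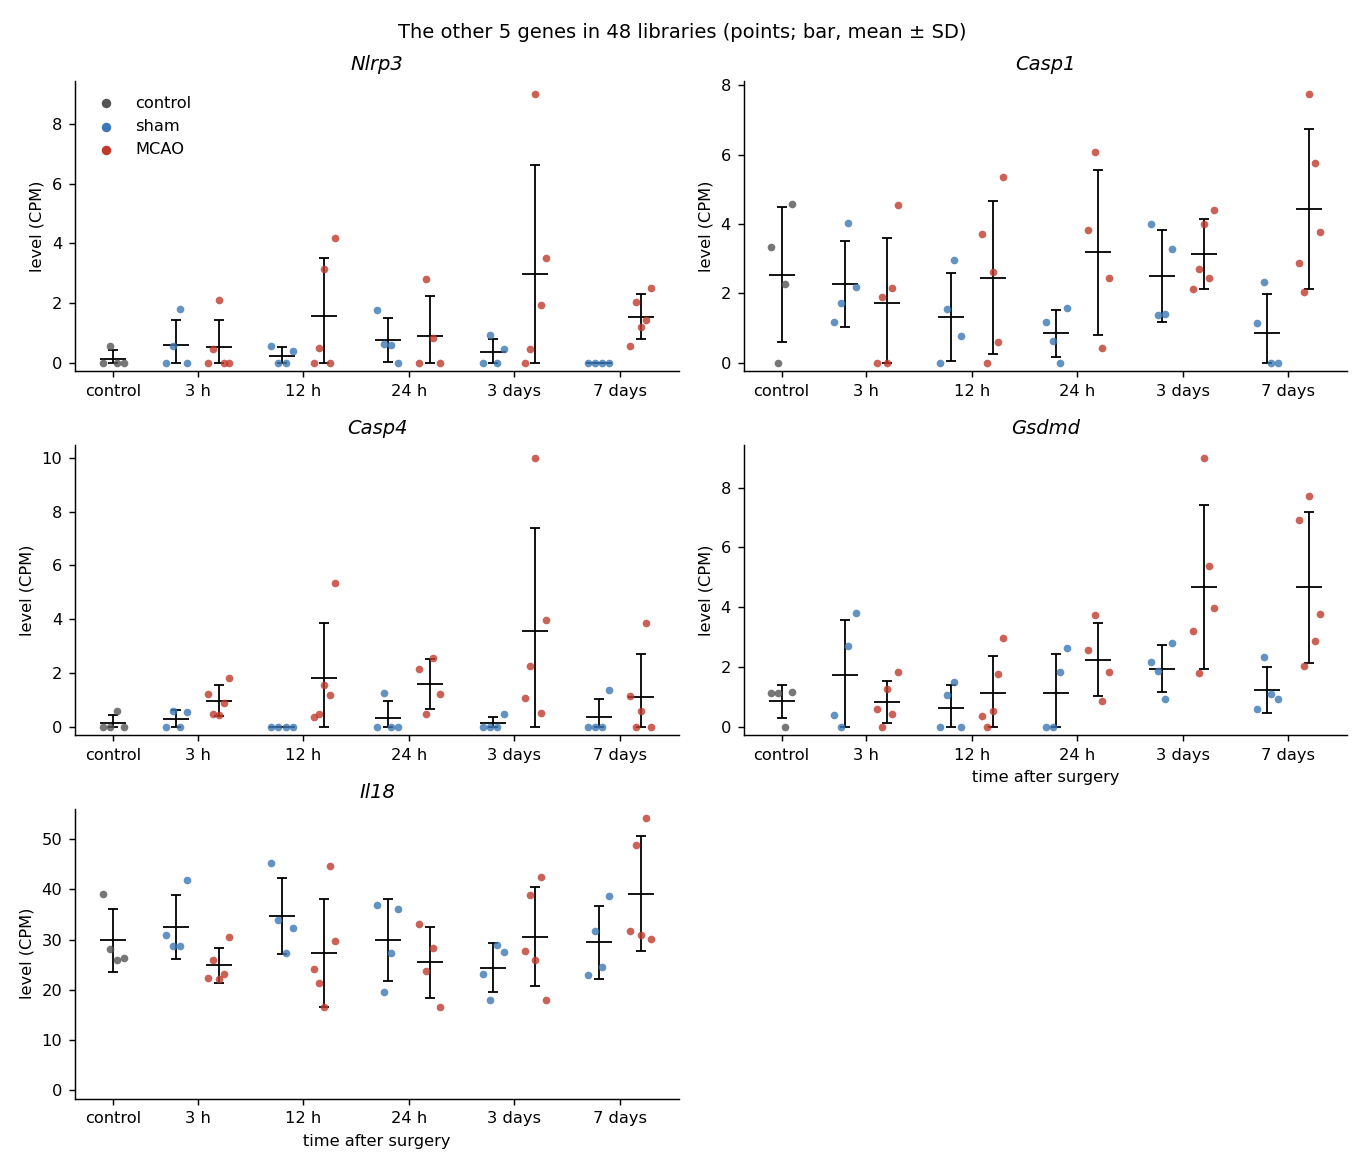
Level of *Nlrp3*, *Casp1*, *Casp4*, *Gsdmd* and *Il18* in CPM on linear axes that differ between panels, 1 point per library (control grey, sham blue, MCAO red). Bars are the mean ± SD of 4 or 5 libraries, with the lower arm stopped at 0. *Casp4* is at 0 in all 4 shams at 12 h and *Nlrp3* in all 4 at 7 days, and *Il18* lies between 16.5 and 54.2 CPM in all groups.

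Counted over the 7 genes, edgeR called 0, 0, 0, 2 and 1 higher after MCAO than in sham at 3 h, 12 h, 24 h, 3 days and 7 days, and none lower. Over all genes tested, 0.0901%, 0.346%, 0.0801%, 3.76% and 2.07% were called higher in these comparisons. At 3 and 7 days these were 750 and 413 genes, beside 52 and 285 lower, and with spike-in scaling they were 463 and 403, beside 131 and 86 lower. At an unadjusted p under 0.05 the numbers were 0, 2, 1, 4 and 4, beside 8.45%, 14.6%, 8.80%, 21.6% and 23.5% of all genes. DESeq2 called 0, 0, 0, 3 and 1, with *Casp4* added at 3 days. Of all 19970 genes DESeq2 called 946 higher at 3 days and 680 at 7 days, more than edgeR. The median log2 fold change of the 7 was -0.27, 0.79, 0.93, 2.74 and 1.84, beside 0.00, 0.01, 0.02, 0.01 and 0.06 over all genes. All 7 had a log2 fold change above 0 at 3 and 7 days. Against control, 0, 0, 0, 1 and 1 were called higher, beside 0.115%, 0.386%, 0.12%, 2.81% and 1.09% of all genes.

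**Figure D4:**
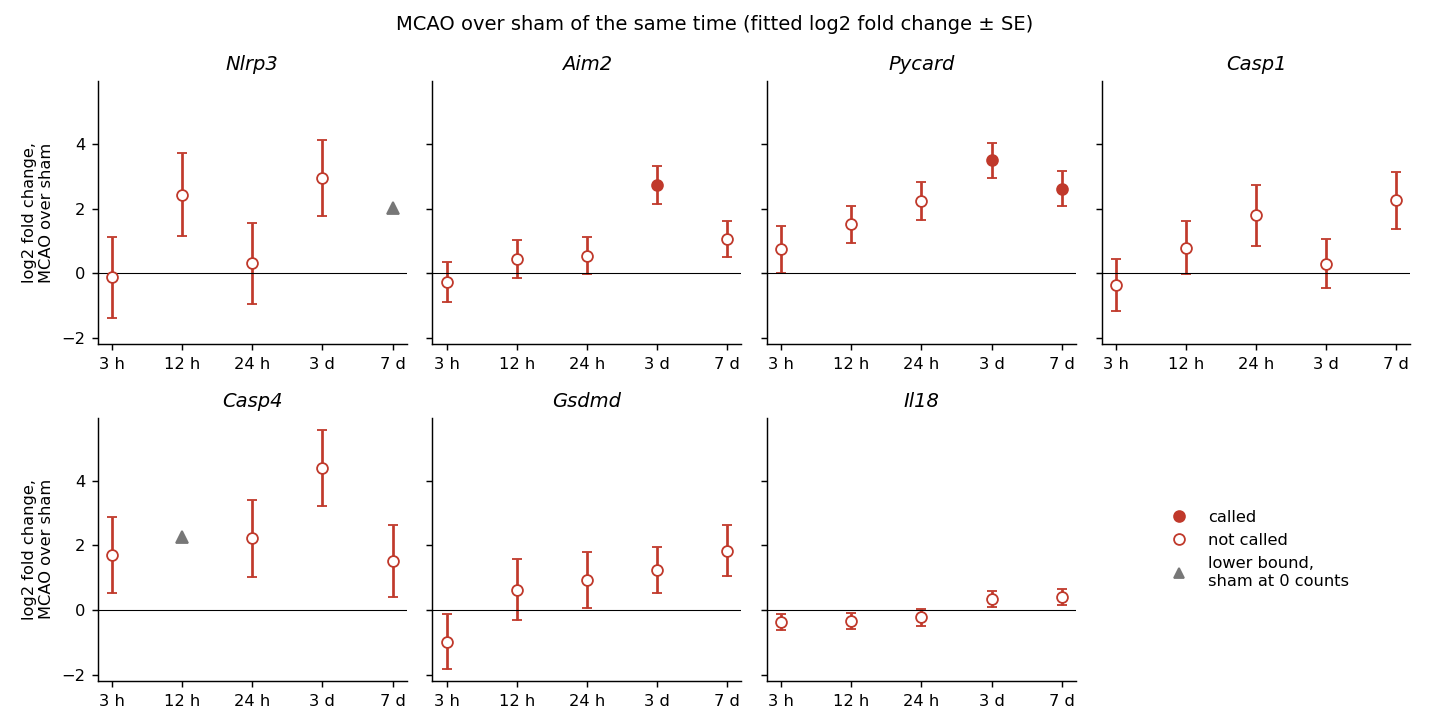
Fitted log2 fold change of MCAO over sham of the same time for each gene (vertical axis, shared by the panels) with its SE as bars, at 3 h to 7 days (horizontal axis). Filled circles passed the test and open circles did not. Grey triangles, named lower bound in the key, mark *Casp4* at 12 h (4.76-fold) and *Nlrp3* at 7 days (4.08-fold). There the sham was at 0 counts and was set to a floor of 3, and counting error in the MCAO counts is not covered. The 3 filled circles are *Pycard* at 3 and 7 days and *Aim2* at 3 days.

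Since most of the genes had few counts in 4 shams, each MCAO group was also compared with all 24 non-MCAO libraries, a comparison chosen after the low counts were seen and holding the libraries already compared. The control and shams were not told apart for any member (adjusted p of 1.00 throughout, 0 called by edgeR or DESeq2 and 0 at an unadjusted p under 0.05, beside 0.02% of all genes called in either direction). At 3 days 5 of 7 were called higher, beside 9.2% of all genes, and they were *Pycard* (log2 fold change 3.54, SE 0.31, adjusted p = 9.58e-13), *Casp4* (4.06, SE 0.65, adjusted p = 4.11e-06), *Aim2* (1.99, SE 0.34, adjusted p = 1.46e-05), *Nlrp3* (3.33, SE 0.73, adjusted p = 0.000599) and *Gsdmd* (1.92, SE 0.49, adjusted p = 0.00325). *Nlrp3* and *Gsdmd* did not pass without MCAO replicate C (2.36 and 1.53, adjusted p = 0.0504 and 0.0606), nor *Gsdmd* without replicate D (1.83, adjusted p = 0.0128). At 7 days *Pycard* (3.01, SE 0.33, adjusted p = 1.71e-09) and *Gsdmd* (1.92, SE 0.50, adjusted p = 0.00621) were called, beside 5.36% of all genes. *Pycard* held without replicate C (2.20, adjusted p = 1.09e-05), and *Gsdmd* did not hold without replicate A, C or E (1.73, 1.66 and 1.98, adjusted p = 0.0343, 0.0650 and 0.0101). At 24 h *Pycard* was called (2.34, SE 0.38, adjusted p = 4.81e-05, beside 1.32%), also without replicate D, its highest library (1.85, adjusted p = 0.00833). At 12 h *Casp4* was called (3.04, SE 0.72, adjusted p = 0.00421, beside 2.63%), but not without replicate C or E (3.06 and 2.10, adjusted p = 0.0100 and 0.120), and *Pycard* reached 1.45 (SE 0.39, adjusted p = 0.0119). At 3 h none was called, beside 1.23%. *Casp4* at 24 h and 7 days, at 2.95 and 2.498 (adjusted p = 0.0153 and 0.0202), passed when sham 24 h replicate B (adjusted p = 0.00701 and 0.00847) or sham 7 days replicate D (adjusted p = 0.00535 and 0.00655) was left out. *Pycard* at 12 h passed when control replicate C was left out (1.53, adjusted p = 0.00816).

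No member was called between neighbouring times after MCAO, beside 0.376%, 0.015%, 0.486% and 0.0351% of all genes called in either direction for 12 h over 3 h, 24 h over 12 h, 3 days over 24 h and 7 days over 3 days. At an unadjusted p under 0.05 there was 1 of 7, *Pycard*, for 12 h over 3 h and for 3 days over 24 h, near the 14.4% and 15.2% of all genes, and DESeq2 called none. The difference of the MCAO effect over sham between neighbouring times was called for no member either, beside 0.01%, 0.01%, 0.01% and 0% of all genes. In that test *Aim2* was at an unadjusted p under 0.05 in the last 2 steps, 1 of 7 beside 8.82% and 16.2% of all genes, and DESeq2 again called none. The times at which single members passed against sham are therefore not shown to differ from those at which they did not.

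The pathway around these genes was read from 57 further genes, of which 46 were tested, 9 had too few counts and 2 had no identifier. Against sham 0.0901%, 0.346%, 0.0801%, 3.76% and 2.07% of all genes tested were called higher at the 5 times. Of the 46 genes, 0, 2, 0, 12 and 6 were called higher and none lower. Their median log2 fold change was 0.35, 0.68, 0.91, 1.64 and 1.45, beside 0.00 to 0.06 over all genes. It was 0.20, 0.68, 0.77, 1.64 and 1.37 with a group at 0 set to the floor of 3 counts. Genes at or under the floor in both groups were then left out. In all 14 were called at some time. DESeq2 called 1 at 24 h, beside 34 higher and 10 lower of all 19970 genes. Of the calls at 12 h, 3 days and 7 days, 0 of 2, 4 of 12 and 3 of 6 held without the library that stood apart in each group (MCAO 12 h replicate E, 3 days replicate C and 7 days replicate C). The 4 were *Cd14*, *Ifi204*, *Irf8* and *Naip2*, which held at 3 days without any 1 library, and the 3 were *Ifi204*, *Irf8* and *Tlr2*.

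Among the other sensors (12 tested), *Ifi204*, a DNA-binding HIN-200 protein, was called at 3 and 7 days (7.76 and 4.85 CPM after MCAO against 0.115 and 0 CPM in sham, adjusted p = 0.000973 and 0.00334). *Naip2*, a partner of the NLRC4 inflammasome, was called at 3 days (7.91 against 0.348 CPM, log2 fold change 4.35, SE 0.88, adjusted p = 0.000587), and *Naip5*, a flagellin receptor, at 7 days (3.43 against 0 CPM, adjusted p = 0.00639). *Zbp1*, a sensor of Z-form nucleic acids, was called at 3 days (3.80 against 0.233 CPM, log2 fold change 3.77, SE 0.94, adjusted p = 0.00771). Without 1 library the *Zbp1* call was lost in 8 of 9 fits, that without MCAO replicate C among them (highest adjusted p 0.0394), that of *Naip5* in 5 (0.0465, without MCAO replicate C) and that of *Ifi204* at 7 days in 3 (0.0187). *Naip2* and *Naip5*, like *Ifi204*, belong to families of near-identical copies, and reads may have been split among them or lost. None of 3 further caspases and none of 6 receptors and decoys was called at any time.

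*Il1b*, the other cytokine that caspase-1 matures, was called higher at 12 h and 3 days, and neither call held without the library with its highest value. It stood at 54.8 ± 99.9 CPM (SD, n = 5) after MCAO and 0.612 ± 0.466 CPM (SD, n = 4) in sham at 12 h (log2 fold change 6.23, SE 1.24, adjusted p = 0.00349), and at 26.0 ± 51.6 and 0.233 ± 0.269 CPM at 3 days (6.54, SE 1.46, adjusted p = 0.00197). Its libraries spread widely, from 0.971 to 233 CPM at 12 h (median 17.2) and from 0 to 118 CPM at 3 days (median 3.42). Without the highest library, replicate E at 12 h and replicate C at 3 days, the log2 fold changes were 3.80 and 3.46 (adjusted p = 0.102 and 0.201). The calls were also lost without any 1 of the 4 shams at 12 h (5.90 to 6.66, adjusted p = 0.0152 to 0.0241) and without sham replicate A or C at 3 days (6.12 and 6.23, adjusted p = 0.0138 and 0.0111). At 3 h the mean was already 6.97 ± 5.66 CPM against 0.440 ± 0.566 CPM, with 4 of 5 MCAO libraries above all shams, but was not called (adjusted p = 0.432). *Il18* and *Il1b* thus had different values over the same libraries, and the difference between the 2 genes was not tested.

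Of the 16 genes of triggering and priming, 6 were called at 3 days. They were *Irf8*, a transcription factor of myeloid cells (99.2 against 16.0 CPM, log2 fold change 2.62, SE 0.36, adjusted p = 1.36e-06), *Cd14*, a co-receptor for bacterial lipopolysaccharide (27.1 against 0.944 CPM, 4.72, SE 0.91, adjusted p = 0.000330), *Irf1* (32.8 against 11.4 CPM, 1.53, SE 0.35, adjusted p = 0.00289), *Myd88*, the adaptor of Toll-like receptors (21.0 against 5.66 CPM, 1.85, SE 0.44, adjusted p = 0.00388), *Tlr2* (8.30 against 0.462 CPM, 4.06, SE 0.99, adjusted p = 0.00572) and *Rela*, a subunit of NF-kB (43.7 against 21.7 CPM, 1.01, SE 0.23, adjusted p = 0.00198). At 7 days *Irf8* (2.65, SE 0.37, adjusted p = 6.31e-06), *Tlr2* (6.52 against 0 CPM, adjusted p = 0.00217) and *Gbp5*, a guanylate-binding GTPase (7.70 against 1.14 CPM, 2.69, SE 0.63, adjusted p = 0.00404), were called. *Cd14* was the only gene of this group called at 12 h (22.1 against 0.822 CPM, 4.68, SE 0.95, adjusted p = 0.00481). Without MCAO replicate C of each group *Irf8* was at 2.46 and 2.01 at 3 and 7 days (adjusted p = 1.06e-05 and 5.53e-05), and *Cd14* at 12 h was not called without replicate E (3.82, adjusted p = 0.0356), replicate C or any 1 of the shams. At 3 days *Irf1*, *Myd88*, *Tlr2* and *Rela* were not called without replicate C (1.27, 1.52, 3.67 and 0.93, adjusted p = 0.0247, 0.0341, 0.0240 and 0.0114) and were lost in 5 or 6 of 9 fits that left out 1 library. *Gbp5* at 7 days was lost in 5 of 9 fits, that without MCAO replicate C among them (highest adjusted p 0.0184), and *Tlr2* in 1, without sham replicate D (adjusted p = 0.0136). *Irf8* is also high in microglia, whose markers moved at the same times.

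Among the gasdermins and membrane rupture genes, 3 of 9 were tested. *Ninj1*, which carries out rupture of the plasma membrane downstream of gasdermin pores, was called at 3 days (44.3 ± 16.9 CPM against 17.5 ± 3.17 CPM, log2 fold change 1.34, SE 0.30, adjusted p = 0.00174) and at 7 days (40.3 ± 15.7 against 15.1 ± 5.57 CPM, 1.41, SE 0.31, adjusted p = 0.00210). All 5 MCAO libraries lay above all shams at both times, and the calls were lost without MCAO replicate C (1.10 and 1.12, adjusted p = 0.0174 and 0.0204) and without sham replicate A or D of either time (adjusted p = 0.0102 to 0.0183). *Ninj1* and *Rela* lie outside the rule for named genes and were named after their values were seen. *Gsdme*, a gasdermin cleaved by caspase-3, lay at 7.89 to 11.6 CPM in the mean of every group and was not called (log2 fold change -0.04, SE 0.27, at 3 days and -0.54, SE 0.29, adjusted p = 0.249, at 7 days). Of 3 restraints tested, *Card19*, a small caspase recruitment domain protein, was called at 3 days (30.0 against 8.62 CPM, 1.80, SE 0.46, adjusted p = 0.00783), and the call was lost in 6 of 9 fits that left out 1 library (highest adjusted p 0.0491, without MCAO replicate C).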

How the data were processed

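Bulk RNA was measured in 48 libraries. The labels name a QuantSeq 3′ kit, which gives reads near transcript ends, and ERCC spike-ins. The authors used STAR (2.5.2b in the submitters' processing notes) on GRCm38, then htseq-count, union mode, with the Gencode vM8 genes. What they deposited is a table of unnormalized read counts for every library. A deposited matrix of normalized values was not used here. Reads without a feature (21.1% to 30.6%), ambiguous reads (0.343% to 0.475%) and reads that were not unique (24.0% to 37.3%) stayed out, as did the spike-ins. Symbols and coordinates came from Gencode vM21 (46488 of 46983 identifiers matched) and promoters from RefSeq (GRCm38.p6).

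One quasi-likelihood model of all 11 groups was fitted in edgeR 4.0.16 (R 4.3.3, TMM) to 19970 genes whose total exceeded 10 counts, all 7 members among them. Thresholds and filter followed the study, which tested each timepoint against control with DESeq2, here among the alternatives. CPM are counts scaled to the TMM-adjusted library size. For edgeR, SE is the size of the log2 fold change divided by the square root of the F statistic of its test. Intervals and floors cover counting error only. Scripts were tested on simulated data, in which only genes with a mean of at least 5 CPM were changed. Of simulated log2 changes of 1 and 2 at 3 days, 48% and 86% were called. *Casp1*, *Casp4*, *Nlrp3*, *Gsdmd* and *Aim2*, at means of 2.35, 1.00, 0.937, 1.99 and 4.45 CPM, lie below the levels covered. The alternatives were DESeq2 1.42.0, its size factors, spike-in scaling, other filters, fits of the 2 groups alone, a replicate block and leaving out each library, for which the trend of the dispersions was kept from all libraries. Other genes named were, at most, the 12 with the largest change among those called against sham, with *Il1b* and *Gsdme*, and for each member the 3 most similar genes, of which 1 is not reported here. Members and lists were chosen with earlier results of these data known.

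With 1522668 to 2826735 counts a library, single counts decide the low values.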

Additional observations from a re-analysis of the deposited data

Results flagged for a closer look

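In 13 of 75 groups of 4 or 5 libraries, 1 library lay far from the others by Dixon's test at the 95% level. The share of about 5% that chance gives holds for continuous values. Where all other libraries of a group are at 0, any count is flagged, so the number of flags cannot be set against that share. The values below are CPM. Many of the flags rest on 1 to 3 counts.

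For *Pycard* they were MCAO 7 days replicate C (64.3, others 7.68 to 18.2) and MCAO 12 h replicate E (15.5, others 5.29 to 7.42). For *Aim2* it was MCAO 7 days replicate C (14.3, others 3.36 to 6.11), the same library. For *Casp4* they were MCAO 12 h replicate E (5.36, others 0.371 to 1.56), the same library as for *Pycard*, and, with all other libraries of the group at 0, control replicate C (0.564), sham 24 h replicate B (1.26), sham 3 days replicate D (0.469) and sham 7 days replicate D (1.37). For *Nlrp3* they were control replicate B (0.562, others 0) and MCAO 3 h replicate C (2.10, others 0 to 0.473). For *Gsdmd* it was control replicate C, at 0 with the others at 1.12 to 1.14. For *Il18* they were control replicate A (39.1, others 26.0 to 28.1), the library with the high choroid plexus markers, and sham 3 h replicate D (42.0, others 28.7 to 30.8).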

How the results depend on the processing

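The calls of *Pycard* at 3 days, against sham and control, held under every alternative run. Counts of members called otherwise moved as follows. Against all non-MCAO libraries they were 1, 1, 5 and 2 at 12 h, 24 h, 3 days and 7 days. Leaving out 1 library gave 1 to 3 at 3 days and 0 to 1 at 7 days against sham, and 0 to 1 at 7 days against control. DESeq2 gave 3 at 3 days against sham (*Casp4* added) and 2 against control (*Aim2* added), and without a filter *Casp4* was called at 3 days against sham (4.37), again as 1 of 3. The 46 other genes gave, at 12 h, 4 with DESeq2, 4 without a filter, 0 in the fit of the 2 groups alone and 1 with the replicate block, at 24 h 1 in each of the first 3 settings, and at 3 days 5 with spike-in scaling and 7 in the fit of the 2 groups alone. Replicate letters did not mark libraries that deviated together (median correlation 0.0073 over 226 same-letter pairs), and the replicate block changed no call of a member. The causes were not tested. filterByExpr gave values for 5 of the 7 members only. Over all genes, those called higher than sham numbered 18, 69, 16, 750 and 413 at the 5 times, 50, 141, 34, 946 and 680 with DESeq2, 52, 148, 53, 845 and 590 without a filter, 81, 29, 109, 496 and 273 in fits of the 2 groups alone and 9, 48, 37, 463 and 403 with spike-in scaling, which at 3 days against control gave 349 higher and 345 lower in place of 561 and 58. Spike-in scaling moved the median of all genes at 3 days to -0.22 against sham and -0.28 against control.

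Directions that turned were all of members not called. Against all non-MCAO libraries the log2 fold changes were 0.14 (*Casp1*), 1.00 (*Nlrp3*) and -0.099 (*Pycard*) at 3 h and -0.17 (*Gsdmd*) at 12 h. *Nlrp3* at 24 h was -0.11 with the replicate block. Against control, *Gsdmd* at 3 h was 0.013 without a filter and 0.0093 in the fit of the 2 groups alone, and spike-in scaling gave -0.016 for *Gsdmd* at 12 h and -0.034 and -0.28 for *Casp1* and *Il18* at 3 days. Leaving out 1 library gave, against sham, -1.08 to 0.071 for *Casp1* at 3 h, -1.86 to 1.39 for *Nlrp3* at 3 h, -0.66 to 0.39 for *Aim2* at 3 h, -0.085 to 1.52 for *Gsdmd* at 12 h and -1.13 to 1.11 for *Nlrp3* at 24 h. Against control it gave -0.15 to 3.30 for *Nlrp3* at 3 h, -0.75 to 0.024 for *Pycard* at 3 h, -0.49 to 0.28 for *Gsdmd* at 3 h, -0.47 to 0.38 for *Casp1* at 12 h, -0.42 to 0.61 for *Gsdmd* at 12 h, -0.38 to 0.019 for *Il18* at 12 h, -0.19 to 0.75 for *Casp1* at 24 h, -0.10 to 0.73 for *Casp1* at 3 days and -0.13 to 0.19 for *Il18* at 3 days.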
